A study of Mus musculus with 12 samples.

Results

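The genes described here encode splicing factors and proteins of the spliceosome. They were chosen by symbol: Sm and LSm genes, other Snrp, Snrnp, Prpf, Sf3a, Sf3b and U2af genes, Srsf, Srrm, Tra2, Luc7l, Son, Pnn and Pnisr, the Clk kinases, Hnrnp genes and numbered Rbm genes. Of 3684 genes that the deposited tables list for either of the T cell types measured, 75 carried such a symbol. In CD4 cells they were 72 of 2999 listed genes and in CD8a cells 64 of 2851, with 61 listed in both. By symbol they were grouped by role as 7 genes of Sm core proteins, 11 of LSm proteins and 20 of other small nuclear ribonucleoprotein and spliceosome subunits. The rest were 12 of serine/arginine-rich (SR) or related proteins, 1 of a Clk kinase, 13 of hnRNP proteins and 11 of RBM proteins. Snrpert, grouped among the 20 by its symbol, is annotated as a processed pseudogene.

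The study measured single-cell RNA from mouse spleens and gave an average expression value per gene and mouse, separately for CD4 and CD8a T cells. The 4 groups held 3 mice each: C57Bl6/J mice without stress, C57Bl6/J mice after repeated social defeat stress, S100a9-/- C57Bl6/J mice without stress, and S100a9-/- C57Bl6/J mice after the same stress. In repeated social defeat a mouse meets an aggressor again and again and loses each time, which models psychosocial stress. Here it ran for 10 days and was followed by 1 day of behavioural tests, and spleens were taken on day 12. S100a9 codes for 1 chain of calprotectin, a protein of myeloid cells that binds calcium, and the labels tie its deletion to no tissue. Age was not among the labels used here. Each library was made from the dissociated spleen of 1 mouse, and CD4 and CD8a cells were then told apart by the authors in the same libraries.

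The spliceosome removes introns from pre-mRNA. Its small nuclear ribonucleoproteins (snRNPs) are built around small RNAs: a ring of Sm proteins surrounds most of them, and a related ring of LSm proteins surrounds U6 RNA or, in the cytoplasm, takes part in mRNA decay. SR proteins bind exons and commonly promote their inclusion, hnRNP proteins coat nascent RNA and often oppose inclusion, and Clk kinases phosphorylate SR proteins. Many genes for SR, hnRNP and RBM proteins hold introns that can be retained or exons that carry stop codons, through which splicing sets the level of their own mRNA, and T cells change their splicing programme when activated.

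After stress, most Sm genes rose and most SR and hnRNP genes fell in both cell types and in mice of both genotype labels. The other snRNP and spliceosome subunits were mixed, with median log2 changes of 0.04 and 0.07 in CD4 cells of wild-type mice and mice labelled knockout. In CD8a cells these medians were -0.52 and 0.002. Among members listed for each comparison, 4 to 6 of 6 or 7 Sm genes were called higher and none lower. Of all genes of the same tables, 17.9% to 31.0% were called higher. Snrpd3, which did not share the rise in CD4 cells, was not listed for stress in mice labelled knockout. Of 34 to 39 members outside the Sm and LSm classes 18 to 29 fell, where 20.0% to 41.5% of all genes were called lower. Rises reached 0.54 on the log2(value + 0.1) scale for Snrpd2 in CD4 cells of mice labelled knockout. Falls were larger: on that scale Prpf38b, a spliceosome activation factor, fell by 1.01 to 1.16. Of 8 to 10 LSm genes, 5 in CD4 and 4 in CD8a cells were called higher in wild-type mice (31.0% and 26.7% of all genes) and 0 in mice labelled knockout (19.5% and 17.9%), a gap that the test of the difference between genotypes did not show.

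Each comparison was fitted with limma, a linear model across all listed genes that shares information on their spread, on log2(value + 0.1). A gene is called changed when its adjusted p (Benjamini-Hochberg, two-sided, over all genes of the comparison) was under 0.05, and log2 changes are given with their standard errors. P-values measure the spread between mice. Values are averages over the cells of a mouse, so fewer cells with a transcript and less transcript per cell cannot be told apart. Values are taken to have the same scale in all mice, on which the genes listed for CD4 cells sum to 7367 to 8225. Depth and cell numbers are unknown. Where ribosomal and mitochondrial genes are removed and the rest rescaled, a total of 10000 per mouse is assumed.

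Several facts of the whole series bear on these counts. S100a9 itself was near 0 in T cells and followed the labels after stress but not in controls. In CD4 cells it was 0.00449 to 0.0167 in wild-type controls and 0.0418 to 0.0493 in controls labelled knockout. After stress it was 0.0595 to 0.111 in wild-type mice and 0.0228 to 0.0294 in mice labelled knockout. In CD8a cells the genotypes overlapped, at 0.00415 to 0.0337 and 0.0307 to 0.0461 in controls. Stressed mice there were at 0.0368 to 0.0889 and 0.00779 to 0.0403. Reads from transcript ends can lie outside a deleted part, so this gene does not check the labels, and the mice are called labelled knockout throughout. Cd4 was 2.58 to 3.01 in CD4 cells of controls and 1.66 to 2.47 after stress, Cd8a and Cd8b1 together 0.403 to 1.15 there. In CD8a cells the Cd8a and Cd8b1 sum was 14.4 to 16.9 in controls and 11.4 to 13.4 after stress, and Cd4 was not listed. Of 10 general T cell markers 6 were listed in each cell type. In wild-type mice they summed to 48.8 to 50.4 in CD4 controls and 54.4 to 60.4 after stress. Their CD8a cells gave 40.8 to 44.0 and 45.1 to 46.9. In mice labelled knockout the sums were 48.7 to 55.9 and 56.0 to 59.9 in CD4 cells. They overlapped in CD8a cells, at 41.6 to 45.6 and 44.1 to 47.5. Of 11 genes on a natural killer list, 7 were listed in CD4 cells (Klrd1, Nkg7, Gzma, Prf1, Ccl5, Tyrobp and Fcer1g). They summed to 3.03 to 8.23 in controls and 9.46 to 40.9 after stress. The 4 of 11 listed in CD8a cells (Klre1, Klrd1, Nkg7 and Ccl5) summed to 13.8 to 22.4 and 25.1 to 47.2. Whether T cells themselves or other cells carried these transcripts was not tested. The 5 of 12 B cell markers listed in CD4 cells summed to 2.37 to 8.05 and 2.60 to 5.16, the 6 of 12 in CD8a cells to 6.08 to 11.4 and 4.11 to 5.85. The 4 listed erythroid genes summed to 0.0891 to 0.141 in CD4 cells of wild-type controls and 0.627 to 5.52 in controls labelled knockout. After stress these sums were 0.197 to 2.36 and 1.70 to 5.08. In CD8a cells the sum was 0.0342 to 15.9 over all mice. Hbb-bt was at 0 in some mice. Of 11 neutrophil genes, 4 listed in CD4 cells summed to 0.0118 to 0.0304 in wild-type controls and 0.116 to 0.323 after stress, and 5 listed in CD8a cells to 0.00619 to 0.0474 and 0.0981 to 0.265. Of 11 monocyte and dendritic markers, 6 listed in CD4 cells summed to 2.70 to 2.95 in wild-type controls and 3.63 to 4.51 after stress, and 4 in CD8a cells to 2.34 to 2.73 and 2.96 to 3.20. In mice labelled knockout both sums overlapped between controls (0.0796 to 0.280 and 3.28 to 6.20 in CD4 cells) and stressed mice (0.225 to 0.449 and 3.69 to 4.78). Of 10 cycling markers, 4 in CD4 cells summed to 4.69 to 5.76 and 2 in CD8a cells to 1.40 to 1.81. The natural killer sum was thus higher, and Cd4 or Cd8a with Cd8b1 lower, in each stressed mouse than in each control of the same cell type. The B cell sum was lower in each stressed mouse in CD8a cells and overlapped in CD4 cells. Neutrophil and monocyte sums were higher after stress without overlap in wild-type mice only, a difference between genotypes that was not tested. The part of these cells in the results below was not tested.

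The authors selected the genes of each table by a rule not given in the sources used here, and the selection shows in the values. Of 2413 genes listed for CD4 cells of wild-type mice, 1.08% had a log2 change between -0.4 and -0.1, against 33.1% of the 586 genes listed only for other CD4 comparisons. The other stress tables had 0.854% to 1.98% in that range. Moderate falls are therefore rarely listed, and all counts of calls are read beside those over all genes of the same table. If genes entered a table by the difference between these same mice, adjusted p and calls do not hold their stated error rate. That would apply to members and to all genes of a table alike. The median log2 change of all listed genes was above 0, at 0.15 and 0.13 in CD4 and 0.09 and 0.11 in CD8a cells from wild-type mice and mice labelled knockout. Centring or rescaling the mice moved it to between 0.12 and 0.29. The median of the Sm and LSm genes stayed above that of all genes, and that of the other members below 0, under each scaling tried. Leaving out a mouse could remove the first: in CD8a cells of mice labelled knockout, without stressed mouse 1, it was 0.083 against 0.089 over all genes.

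**Figure D1:**
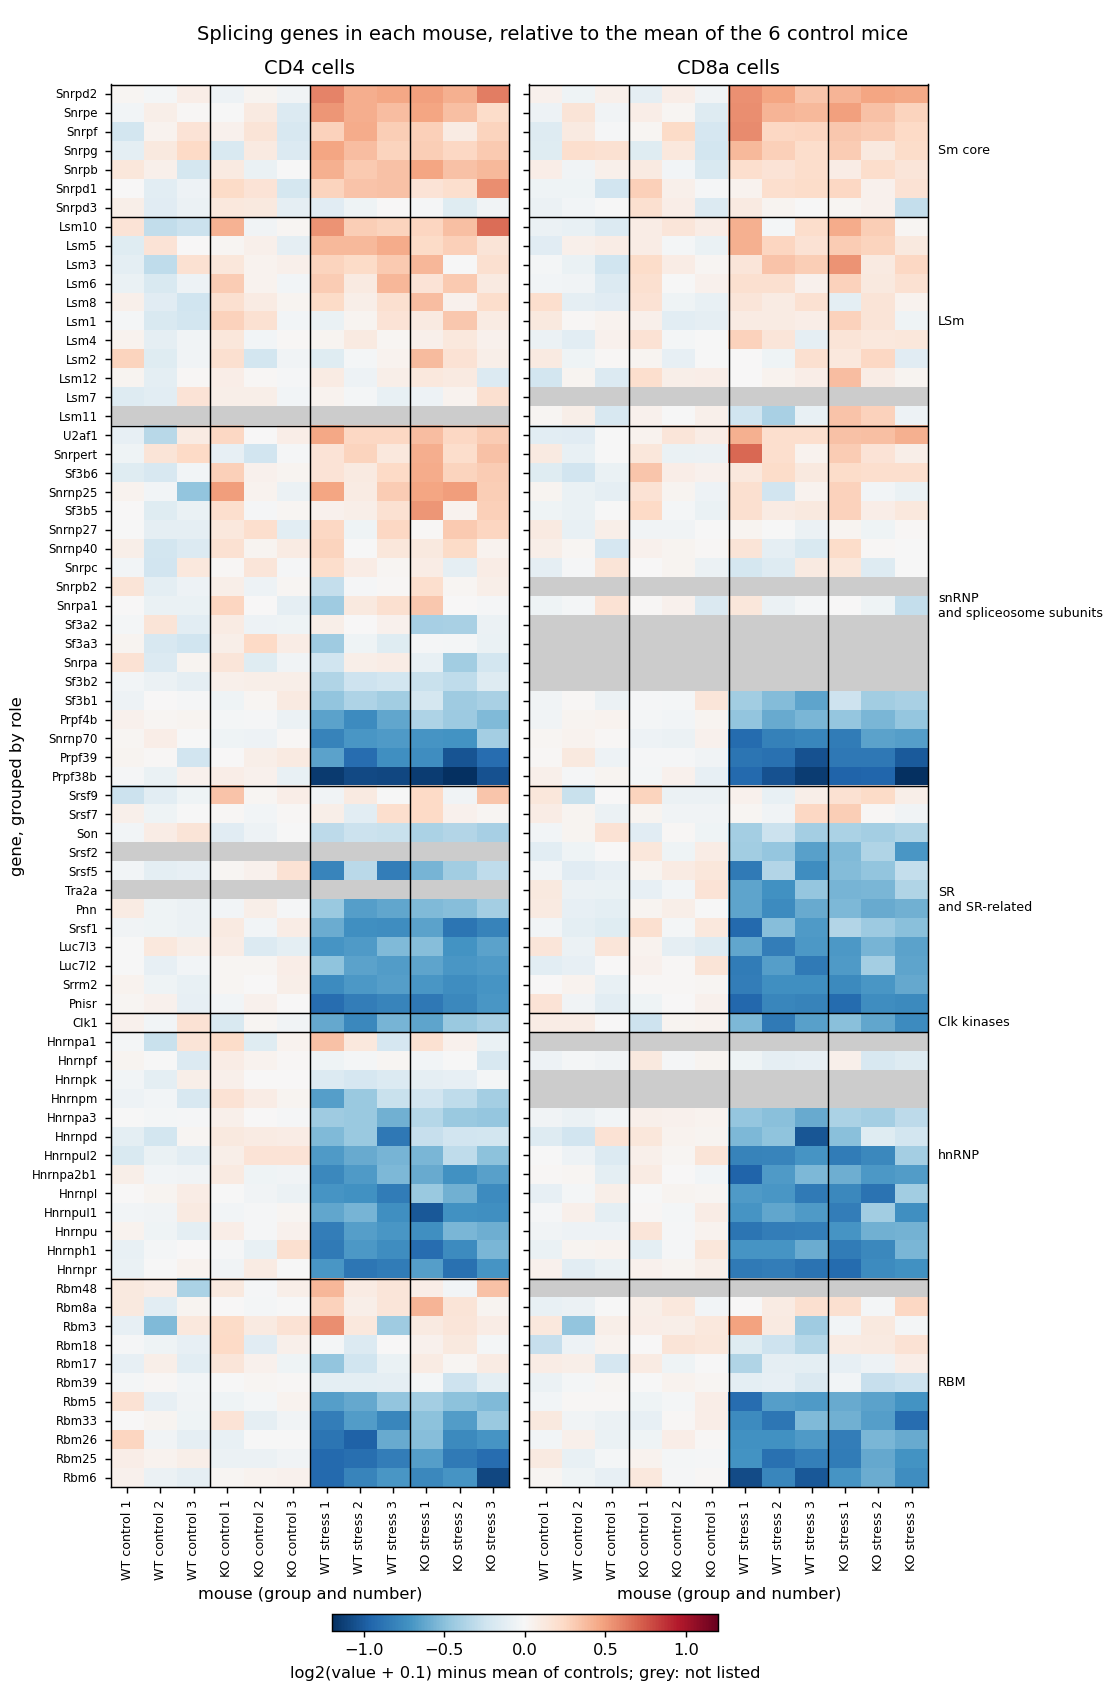
Each column is a mouse and each row a splicing gene, grouped by role; colour gives log2(value + 0.1) minus the mean of the 6 control mice of that cell type, and grey marks genes not listed there. Most Sm rows are red in the stressed mice, and most SR, hnRNP and RBM rows are blue.

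The promoters of 4 genes are shown here because these genes carry the contrast. Snrpe and Snrpd2 were among the most raised Sm genes, and Prpf38b and Snrnp70 among the most lowered snRNP genes. Snrpe lies on chromosome 1 (133603871 to 133610291, minus strand), Snrpd2 on chromosome 7 (19149722 to 19153542, plus strand), Prpf38b on chromosome 3 (108902805 to 108911727, minus strand) and Snrnp70 on chromosome 7 (45376453 to 45395742, minus strand), all protein-coding in GENCODE M21 on GRCm38. Each line gives 300 bases of RefSeq on GRCm38.p6, from 250 before to 50 after the start, 5′ to 3′ on the gene's strand. Capitals mark matches on either strand to any of 5 motifs. CCGGAAG is the core of ETS family sites. CCAAT is the box bound by the factor NF-Y. GGGCGG is a GC box, which Sp family factors bind. TATAAA is a form of the TATA box. An E-box is written here as CACGTG.
Snrpe chr1:133610231-133610530, minus strand: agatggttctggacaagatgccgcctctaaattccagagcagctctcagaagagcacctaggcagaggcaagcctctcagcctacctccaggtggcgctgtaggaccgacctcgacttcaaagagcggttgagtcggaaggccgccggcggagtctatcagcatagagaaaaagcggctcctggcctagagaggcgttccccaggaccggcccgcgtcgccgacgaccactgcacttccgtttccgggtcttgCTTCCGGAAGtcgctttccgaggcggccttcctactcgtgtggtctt
Snrpd2 chr7:19149588-19149887, plus strand: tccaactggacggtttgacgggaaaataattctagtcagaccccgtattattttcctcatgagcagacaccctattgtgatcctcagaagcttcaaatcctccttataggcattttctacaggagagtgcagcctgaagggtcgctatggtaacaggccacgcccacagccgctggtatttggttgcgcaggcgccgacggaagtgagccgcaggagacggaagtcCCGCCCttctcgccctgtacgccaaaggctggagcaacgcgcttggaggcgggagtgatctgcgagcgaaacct
Prpf38b chr3:108911680-108911979, minus strand: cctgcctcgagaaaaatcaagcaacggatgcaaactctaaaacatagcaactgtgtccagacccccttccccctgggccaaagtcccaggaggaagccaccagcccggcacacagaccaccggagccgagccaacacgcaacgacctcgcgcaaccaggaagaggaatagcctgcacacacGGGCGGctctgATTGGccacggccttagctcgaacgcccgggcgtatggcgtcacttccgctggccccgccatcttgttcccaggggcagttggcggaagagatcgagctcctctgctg
Snrnp70 chr7:45395693-45395992, minus strand: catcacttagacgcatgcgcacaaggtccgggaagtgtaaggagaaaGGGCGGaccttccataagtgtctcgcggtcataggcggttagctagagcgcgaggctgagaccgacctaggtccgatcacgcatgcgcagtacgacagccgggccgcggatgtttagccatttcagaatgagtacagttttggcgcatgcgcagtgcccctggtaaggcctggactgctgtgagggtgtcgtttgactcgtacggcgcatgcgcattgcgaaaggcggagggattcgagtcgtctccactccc
The Snrpe window held 2 ETS core matches that overlap on opposite strands, and the Snrpd2 and Snrnp70 windows 1 GC box each. The Prpf38b window held 1 GC box and 1 CCAAT match. Of the 75 members 61 had such a window. The GC box was found in 10 of 13 windows of Sm and LSm genes and 31 of 48 of other members, against 35.9% of 27025 genes of the table. The ETS core was found in 3 of 13 and 13 of 48, against 9.12%, and CCAAT in 7 of 13 and 23 of 48, against 37.9%. TATAAA was in 0 of 13 and 4 of 48 (14.2% of all) and CACGTG in 0 of 13 and 5 of 48 (7.24% of all). No such motif was held by all windows of a class, and a match describes letters, not a binding site.

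The summed level of the Sm genes was higher in each stressed mouse than in each control. In CD4 cells the 7 Sm genes summed to 12.1, 12.6 and 12.8 in the wild-type control mice and 16.2, 15.8 and 15.3 after stress. For mice labelled knockout the sums were 12.5, 13.2 and 11.2 without and 15.7, 14.6 and 15.4 with stress. CD8a cells gave 12.2, 13.6 and 13.1 and 17.0, 15.6 and 15.2 in wild-type mice. The 55 other members listed in CD4 cells moved the other way, from 123, 119 and 121 to 90.5, 90.6 and 90.8 in wild-type mice. Those of mice labelled knockout went from 127, 124 and 125 to 96.4, 91.9 and 93.3. For the 47 other members listed in CD8a cells the sum was 103 to 109 in controls and, after stress, 72.8 to 78.3. Control and stressed mice did not overlap in either sum. Sm and LSm transcripts together made up 12.8 to 14.3% of the members' total in CD4 controls and 20.0 to 21.3% after stress. In CD8a cells the share was 14.1 to 16.2% and 21.8 to 24.99%. This share is a ratio within each mouse and is the same whatever total the mouse is scaled to.

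**Figure D2:**
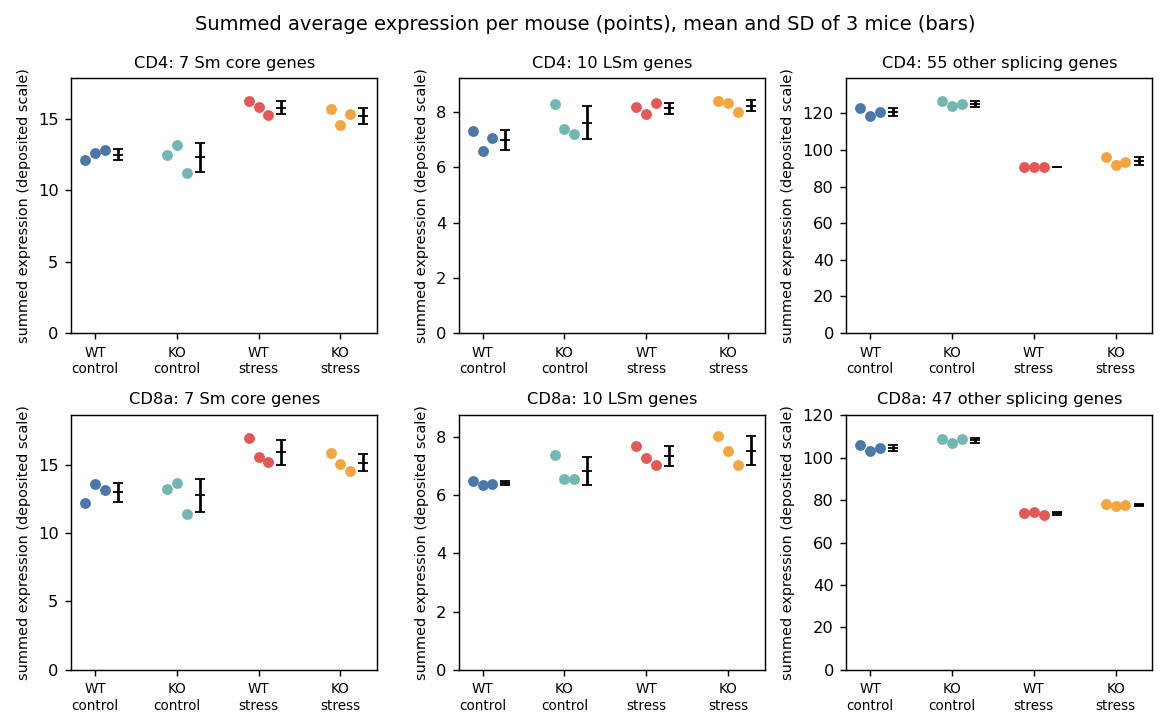
Points are the summed average expression (deposited scale, from 0) of the Sm, LSm and other splicing genes in each mouse, by group, with mean and SD of 3 mice beside them. The other splicing genes of CD4 cells sit between 119 and 127 in controls and between 90.5 and 96.4 after stress.

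Other quantities moved with stress in the same mice. Ribosomal protein transcripts summed to 2006 to 2454 in CD4 controls and 2792 to 3122 after stress, and to 2285 to 2650 and 3190 to 3657 in CD8a cells. Mitochondrially encoded transcripts summed to 467 to 536 and 383 to 462 in CD4 cells, and the nuclear RNA Malat1 was at 212 to 237 and 149 to 163. With ribosomal and mitochondrial genes removed and the rest rescaled, the other members of CD4 cells still summed to 163 to 171 in controls and 137 to 145 after stress. The Sm genes then summed to 15.2 to 18.1 and 21.9 to 25.1, and neither sum overlapped between control and stressed mice. What these shifts contribute to the contrast was not tested.

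Among the Sm genes, which encode the ring around U1, U2, U4 and U5 RNA, 6 of 7 listed in CD4 cells of wild-type mice rose, while 31.0% of all 2413 genes were called higher. Their median log2 change was 0.37, against 0.15 over all genes. Snrpe, the SmE protein, was at 2.61, 2.81 and 2.70 in wild-type controls and 3.89, 3.65 and 3.48 after stress. All 3 stressed mice lay above all 3 controls (log2 change 0.43 ± 0.07, limma adjusted p = 0.00027). Snrpd2, the SmD2 protein, was at 0.972, 0.935 and 1.01 in controls and 1.49, 1.33 and 1.35 after stress, again without overlap (0.47 ± 0.09, adjusted p = 0.00044). Snrpd1 (SmD1) rose by 0.38 ± 0.09, Snrpb (SmB) by 0.37 ± 0.10, Snrpf (SmF) by 0.35 ± 0.10 and Snrpg (SmG) by 0.29 ± 0.10. The Snrpg call was lost without wild-type control mouse 1 or stressed mouse 1 (adjusted p = 0.094 and 0.071). Snrpd3 (SmD3) did not share the direction: it was at 1.86, 1.59 and 1.67 in controls and 1.59, 1.69 and 1.77 after stress (-0.02 ± 0.09, adjusted p = 0.87), and its sign was positive under 2 scalings.

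Of the Sm genes listed in mice labelled knockout, 4 of 6 rose in CD4 cells, against 19.5% of 1898 genes. Snrpe went from 2.65, 2.89 and 2.37 to 3.74, 3.46 and 3.12 (0.37 ± 0.09, limma adjusted p = 0.004). Snrpd2 went from 0.909, 0.981 and 0.926 to 1.39, 1.32 and 1.52 (0.54 ± 0.10, adjusted p = 0.00023). In neither gene did the groups overlap. Snrpb and Snrpg rose by 0.40 ± 0.09 and 0.36 ± 0.09, while Snrpd1 (0.25 ± 0.14) and Snrpf (0.21 ± 0.10) did not pass (adjusted p = 0.17 and 0.11). Snrpd3, the Sm gene not listed for stress in these mice, was at 1.93, 1.92 and 1.62 without and 1.74, 1.58 and 1.71 with stress. In a fit of all 4 groups over all listed genes its log2 change was -0.11 here and -0.10 in CD8a cells, neither called.

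CD8a cells came from the same mice, so they are a second readout and not new animals. There 4 of 7 Sm genes rose in wild-type mice, against 26.7% of 2108 genes. Snrpe was at 2.49, 2.91 and 2.52 in controls and 3.89, 3.49 and 3.43 after stress (0.44 ± 0.08, limma adjusted p = 0.00042), and Snrpd2 at 0.978, 0.904 and 0.985 and 1.42, 1.34 and 1.21 (0.43 ± 0.09). Both genes were higher in all 3 stressed mice than in all controls. Snrpf rose by 0.38 ± 0.10 and Snrpd1 by 0.27 ± 0.10. The Snrpd1 call had an adjusted p of 0.031, and of 0.096 to 0.11 without control mouse 3, stressed mouse 2 or stressed mouse 3. Snrpb (0.16 ± 0.08), Snrpg (0.22 ± 0.10) and Snrpd3 (0.08 ± 0.08) did not pass, though their groups did not overlap. In mice labelled knockout 4 of 6 rose, against 17.9% of 2023 genes. Snrpd2 was at 0.863, 0.999 and 0.906 and 1.28, 1.34 and 1.32 (0.47 ± 0.09, adjusted p = 0.00046) and Snrpe at 2.76, 2.65 and 2.33 and 3.71, 3.36 and 3.16 (0.39 ± 0.08), without overlap. Snrpf (0.27 ± 0.10, adjusted p = 0.041) and Snrpg (0.29 ± 0.09, adjusted p = 0.017) each lost the call on leaving out single mice, at up to 0.23 for Snrpf without control mouse 3 and 0.092 for Snrpg without that mouse. Without the mean-variance trend both also missed it (0.084 and 0.055).

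**Figure D3:**
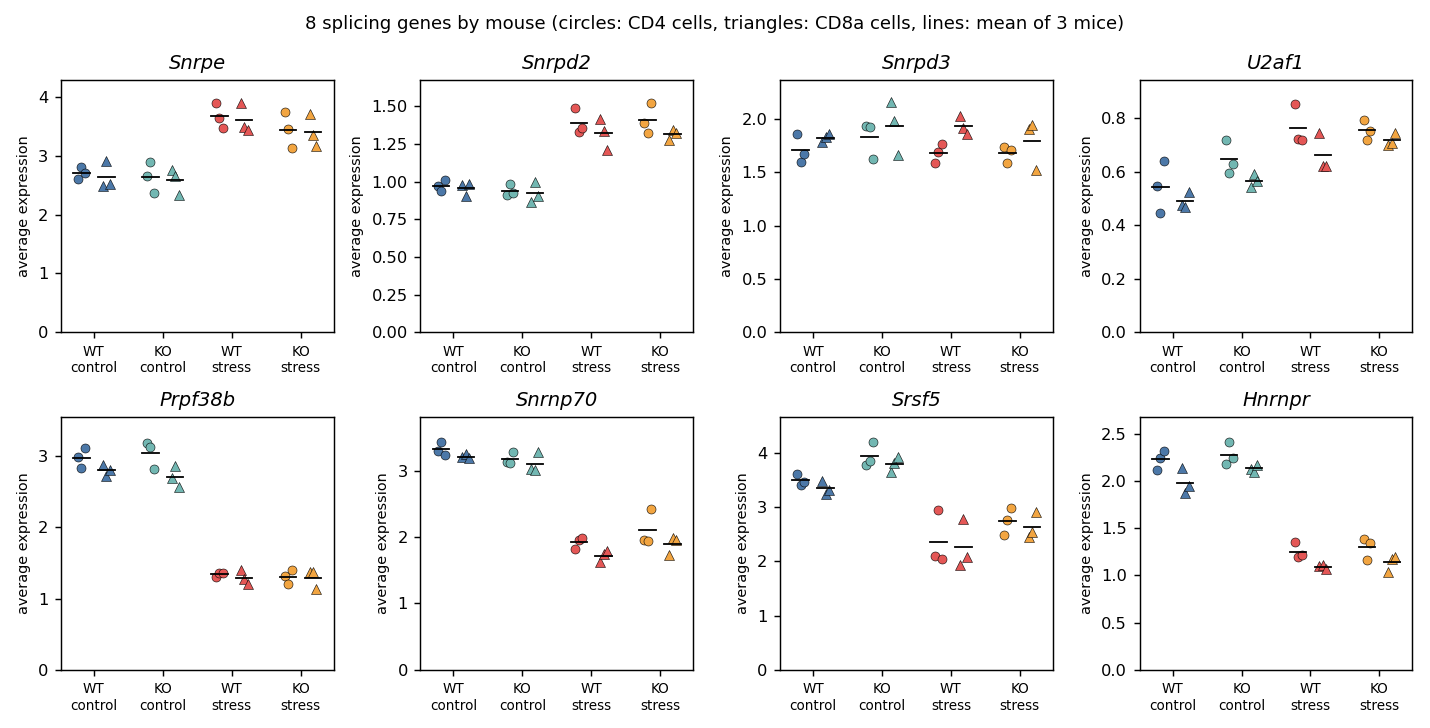
Points are the average expression (deposited scale, from 0) of 8 splicing genes in each mouse, circles for CD4 and triangles for CD8a cells, with the mean of 3 mice as a line. Snrpe, Snrpd2 and U2af1 are higher after stress, Snrpd3 overlaps between most groups, and Prpf38b, Snrnp70, Srsf5 and Hnrnpr are lower.

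In wild-type mice 5 of 10 LSm genes rose in CD4 cells (Lsm3, Lsm5, Lsm6, Lsm8, Lsm10), against 31.0% of all genes, and 4 of 8 in CD8a cells (Lsm3, Lsm5, Lsm6, Lsm10), against 26.7%. Lsm3, Lsm5, Lsm6 and Lsm8 encode subunits of the ring on U6 RNA, and Lsm10 a subunit of the U7 ring that processes histone mRNA. Lsm5 was at 0.674, 0.856 and 0.759 in CD4 cells of controls and 1.02, 1.02 and 1.06 after stress. The groups were apart (0.40 ± 0.10, limma adjusted p = 0.0043). Lsm6 was at 0.754, 0.694 and 0.764 and 1.02, 0.873 and 1.09, also apart (0.38 ± 0.10, adjusted p = 0.0064). Lsm3 (0.35 ± 0.13), Lsm8 (0.27 ± 0.11) and Lsm10 (0.50 ± 0.15) were called as well. Lsm3 lost its call without any 1 of 5 mice, Lsm8 without any 1 of 4, and Lsm10 without control mouse 2 (adjusted p = 0.052). In CD8a cells Lsm3 was at 0.444, 0.423 and 0.369 and 0.510, 0.602 and 0.577 (0.37 ± 0.11, adjusted p = 0.0083), without overlap. The CD8a calls of Lsm5, Lsm6 and Lsm10 (adjusted p = 0.026, 0.047 and 0.049) were each lost on leaving out some mice, at 0.11, 0.14 and 0.18 at most.

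Lsm4 and Lsm12 in both cell types, Lsm1, Lsm2 and Lsm7 in CD4 cells, and Lsm1 and Lsm8 in CD8a cells did not pass in wild-type mice, with log2 changes of -0.07 to 0.18. Lsm1 and Lsm7 belong with Lsm2 to Lsm6 in the cytoplasmic decay ring. In mice labelled knockout 0 of 10 LSm genes were called in either cell type by limma, with 1 at an unadjusted p under 0.05 in each (Lsm5, 0.23 ± 0.10 in CD4 and 0.23 ± 0.10 in CD8a cells). All 10 log2 changes were above 0 in both, at up to 0.30 for Lsm10 in CD4 cells, with Lsm11, listed in that CD8a comparison alone among the stress tables, at 0.15 ± 0.13. Controls labelled knockout already ran higher for some: Lsm6 was at 1.02, 0.831 and 0.781 in CD4 cells without stress, above each wild-type control, and at 0.910, 1.02 and 0.873 after it. The 10 LSm genes of CD4 cells summed to 7.30, 6.61 and 7.07 in wild-type controls, 8.17, 7.93 and 8.33 after stress, 8.29, 7.38 and 7.19 in controls labelled knockout and 8.39, 8.32 and 7.999 after stress. The last 2 groups overlapped. Counted together, 4 of 16 Sm and LSm genes were called higher in mice labelled knockout in each cell type, beside 19.5% and 17.9% of all genes, and in wild-type mice 64.7% of 17 in CD4 and 53.3% of 15 in CD8a cells. With ribosomal and mitochondrial genes removed and the rest rescaled, the counts in mice labelled knockout became 9 of 16 in CD4 and 10 of 16 in CD8a cells, with 39.2% and 35.7% of all genes called higher. In CD8a cells of wild-type mice they became 14 of 15 (48.4% of all genes), and 15 of 15 after centring each mouse on its median (54.2%). The CD8a counts leaned on single mice: 8 became 5 in wild-type mice without control mouse 1 or stressed mouse 1, and 4 became 2 in mice labelled knockout without control mouse 3 or stressed mouse 1.

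**Figure D4:**
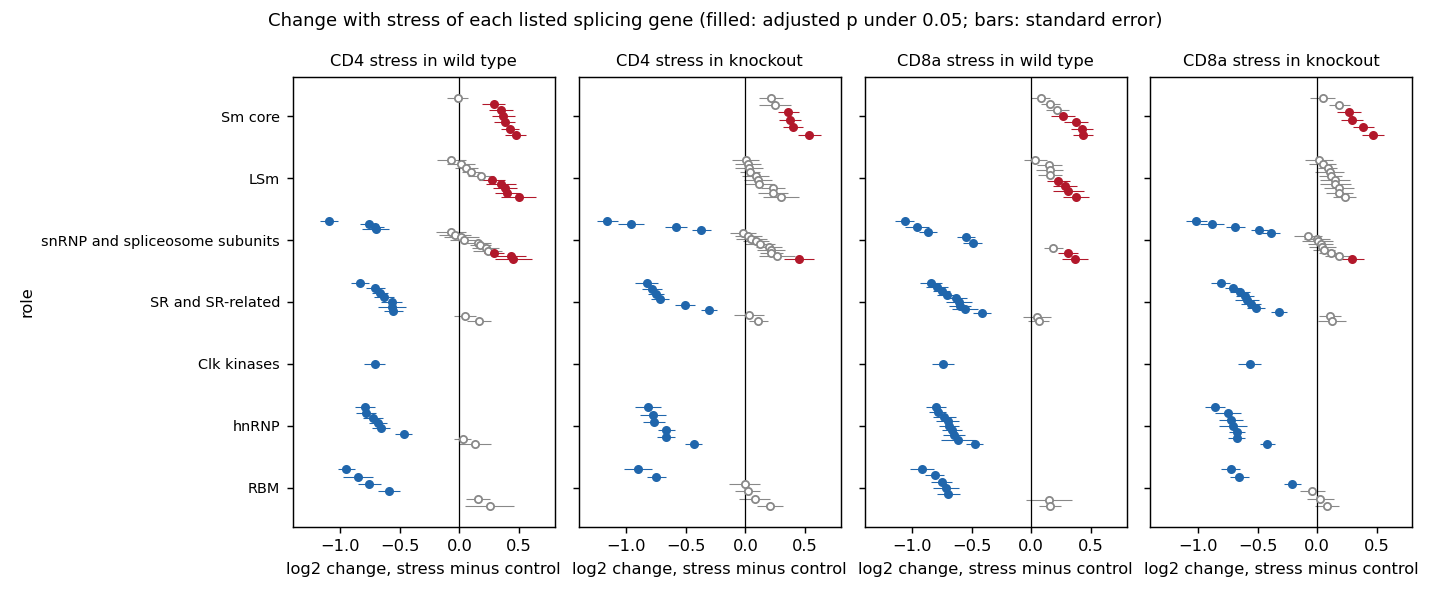
Each point is the log2 change after stress (stress minus control) of 1 listed splicing gene, with its standard error, by role and comparison; filled points had an adjusted p under 0.05. Filled points of the Sm and LSm rows lie right of 0, and those of the SR, Clk, hnRNP and RBM rows left of it.

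The other snRNP and spliceosome subunits were mixed. In CD4 cells of wild-type mice 3 of 15 rose (20.0%, against 31.0% of all genes) and 4 fell (26.7%, against 28.9%). In CD8a cells 2 of 8 rose (against 26.7%) and 5 fell (62.5%, against 41.5%). In mice labelled knockout 1 of 14 rose in each cell type (7.14%, against 19.5% and 17.9% of all genes). The 1 in CD4 cells was Snrpert, annotated as a processed pseudogene. In these mice 4 of 14 fell in CD4 cells (28.6%, against 20.0%) and 5 of 14 in CD8a cells (35.7%, against 22.1%). Shares called higher were thus below those over all genes in all 4 comparisons. Among the genes each table lists, shares called lower were above them except in CD4 cells of wild-type mice. This order did not hold in the fit of all 4 groups over all listed genes. There 7 of 20 fell in CD4 cells of each genotype, above the 27.7% and 29.0% of all genes in wild-type mice and mice labelled knockout. In CD8a cells 5 of 14 fell in each genotype (35.7%), close to the 35.5% and 34.4% of all genes. With so few genes, 1 gene moves such a share widely. Prpf38b, a component of the complex that activates the spliceosome, fell most in all 4 comparisons. It was at 2.99, 2.84 and 3.12 in CD4 cells of wild-type controls and 1.31, 1.37 and 1.36 after stress, and at 3.19, 3.13 and 2.83 and 1.32, 1.20 and 1.41 in mice labelled knockout. Stressed mice were far below all controls in both genotypes. Its log2 change was -1.09 ± 0.08 and -1.16 ± 0.09 in CD4 and -1.06 ± 0.08 and -1.01 ± 0.09 in CD8a cells (limma adjusted p = 1.5e-06, 4e-07, 1.8e-06 and 8.2e-07). Snrnp70, the U1 70K protein that contacts the 5′ splice site complex, was at 3.30, 3.43 and 3.23 and 1.82, 1.96 and 1.99 in CD4 cells of wild-type mice, with no overlap (-0.76 ± 0.07). In CD8a cells it was at 3.20, 3.25 and 3.19 and 1.62, 1.75 and 1.79 (-0.87 ± 0.08). Prpf39, a U1-associated protein, fell, with log2 changes of -0.70 ± 0.11 in CD4 and -0.96 ± 0.10 in CD8a cells from wild-type mice. Prpf4b, a kinase of the spliceosome, changed by -0.71 ± 0.07 and -0.55 ± 0.08. Sf3b1, the large U2 subunit that binds near the branch point, changed by -0.49 ± 0.08 in CD8a cells from wild-type mice and -0.37 ± 0.08 and -0.39 ± 0.08 in CD4 and CD8a cells of mice labelled knockout.

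The subunits that rose were few. U2af1, which reads the AG at the 3′ splice site, was at 0.545, 0.447 and 0.641 in CD4 cells of wild-type controls and 0.853, 0.720 and 0.718 after stress (0.43 ± 0.13, limma adjusted p = 0.0099, and 0.056 without control mouse 2). The CD8a values were 0.476, 0.469 and 0.526 and 0.743, 0.623 and 0.621 (0.37 ± 0.11), with both cell types free of overlap. In CD8a cells of mice labelled knockout it rose by 0.29 ± 0.10 (adjusted p = 0.029), a call lost without any 1 of 5 mice. Sf3b6, the small U2 subunit that touches the branch point, was at 1.27, 1.22 and 1.38 and 1.60, 1.53 and 1.68 in CD4 cells of wild-type mice (0.29 ± 0.08) and rose by 0.31 ± 0.09 in their CD8a cells. Controls labelled knockout were already at 1.75, 1.47 and 1.44 in CD4 cells, between or near the stressed wild-type values, and Sf3b6 was not called with stress in that genotype (0.22 ± 0.10). Snrnp25, of the minor spliceosome, rose in CD4 cells of wild-type mice (0.45 ± 0.16, adjusted p = 0.025) at low levels of 0.186, 0.171 and 0.0997 in controls and 0.287, 0.198 and 0.244 after stress, and without control mouse 3 its adjusted p was 0.11. Snrpert was called higher in CD4 cells of mice labelled knockout (0.45 ± 0.12), and at 0.060 without control mouse 2. It is annotated as a processed pseudogene (chromosome 2, 131322088 to 131322366, minus strand) that matches Snrpe transcripts at 98.9% of 279 bases, and its mean was 0.0642 ± 0.0128 against 3.44 ± 0.307 for Snrpe (SD, n = 3), so its value is uncertain where reads could be split between copies.

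SR and related genes fell almost throughout. Of those listed, 7 of 9 fell in CD4 and 9 of 11 in CD8a cells from wild-type mice, and 6 of 8 and 8 of 10 in mice labelled knockout, and none rose. All members outside the Sm and LSm classes together had 22 of 39 called lower in CD4 cells of wild-type mice, against 28.9% of all genes, and 18 of 34 in mice labelled knockout, against 20.0%. In CD8a cells the counts were 29 of 36, against 41.5%, and 24 of 38, against 22.1%. Their medians were -0.57, -0.34, -0.68 and -0.50 on the log2 scale, where those of all genes were above 0. Srrm2, a large scaffold of nuclear speckles, was at 7.39, 6.92 and 6.75 in CD4 cells of wild-type controls and 4.22, 4.42 and 4.51 after stress. The groups were far apart (-0.67 ± 0.07, limma adjusted p = 8.8e-06), as in mice labelled knockout, with 7.30, 7.23 and 7.54 and 4.39, 4.25 and 4.35. Pnisr, an SR-related protein, fell, with log2 changes of -0.84 ± 0.08 and -0.78 ± 0.08 in CD4 and -0.84 ± 0.09 and -0.81 ± 0.08 in CD8a cells.

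Srsf1, a canonical SR protein, was at 1.55, 1.55 and 1.52 and 1.03, 0.926 and 0.917 in CD4 cells of wild-type mice (-0.64 ± 0.09) and 1.74, 1.57 and 1.72 and 0.994, 0.832 and 0.878 in mice labelled knockout (-0.83 ± 0.10), without overlap. Luc7l2 and Luc7l3, U1-associated proteins, fell, with log2 changes of -0.56 ± 0.08 and -0.71 ± 0.08 in CD4 and -0.71 ± 0.08 and -0.79 ± 0.09 in CD8a cells from wild-type mice. Srsf5 fell unevenly, at 2.102, 2.95 and 2.04 in CD4 and 1.94, 2.78 and 2.09 in CD8a cells of stressed wild-type mice, with stressed mouse 2 the highest in both, against 3.62, 3.41 and 3.46 and 3.49, 3.23 and 3.32 in controls. Even that mouse was below each control (-0.57 ± 0.12 and -0.56 ± 0.11). The exceptions in the class were Srsf7 and Srsf9, which did not pass in any comparison (log2 changes 0.03 to 0.17). Srsf7 was at 2.98, 2.75 and 2.84 and 2.99, 2.60 and 3.30 in CD4 cells of wild-type mice, with overlap. Clk1, the listed SR protein kinase, was at 2.47, 2.32 and 2.68 and 1.52, 1.35 and 1.58 there (-0.71 ± 0.09, adjusted p = 2.4e-05) and fell as well in CD8a cells (-0.74 ± 0.09), without overlap in either.

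Of the hnRNP genes, 6 of 8 fell in CD4 and 9 of 9 in CD8a cells from wild-type mice, and 6 of 6 and 7 of 7 in mice labelled knockout. Of all genes 28.9%, 41.5%, 20.0% and 22.1% were called lower in these 4 comparisons. Hnrnpr was at 2.12, 2.25 and 2.32 in CD4 cells of wild-type controls and 1.35, 1.19 and 1.22 after stress (-0.79 ± 0.08, limma adjusted p = 1.1e-05). In CD8a cells it was at 2.14, 1.87 and 1.94 and 1.10, 1.11 and 1.07 (-0.80 ± 0.08), and in both the stressed mice were clear of the controls. Hnrnpu, which binds chromatin and nascent RNA, was at 4.99, 4.94 and 4.95 and 2.76, 2.85 and 2.88 in CD8a cells from wild-type mice (-0.79 ± 0.07, adjusted p = 2e-06). Hnrnpa2b1, an abundant RNA packaging protein, was at 8.29, 7.71 and 7.67 and 4.59, 4.92 and 5.42 in CD4 cells (-0.66 ± 0.08), also without overlap. Hnrnpl, which in T cells regulates exons of Ptprc (CD45), fell, with log2 changes of -0.80 ± 0.09 in CD4 and -0.73 ± 0.09 in CD8a cells from wild-type mice. Hnrnph1 fell, with log2 changes of -0.73 ± 0.09 and -0.78 ± 0.11 in CD4 cells of the 2 genotypes, and Hnrnpul1 had -0.82 ± 0.11 in those of mice labelled knockout. Hnrnpul2 fell, with a log2 change of -0.75 ± 0.11 in CD8a cells of mice labelled knockout. Hnrnpf (0.03 ± 0.07) and Hnrnpa1 (0.13 ± 0.14), listed for CD4 cells of wild-type mice, did not pass. Hnrnpf stood at 5.96, 5.78 and 5.20 in controls and 5.61, 5.73 and 5.90 after stress there, within one range.

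RBM genes split into falling and level members. In CD4 cells 4 of 6 fell in wild-type mice and 2 of 6 in mice labelled knockout, against 28.9% and 20.0% of all genes. In CD8a cells 5 of 7 and 3 of 6 fell, against 41.5% and 22.1%. With 6 or 7 genes a comparison, 1 gene moves such a share widely. Rbm25, a U1-associated factor, was at 3.86, 3.75 and 3.84 and 1.86, 1.90 and 2.02 in CD4 cells of wild-type mice (-0.95 ± 0.07, limma adjusted p = 2.2e-06) and 3.48, 3.46 and 3.54 and 2.27, 1.99 and 1.89 in mice labelled knockout (-0.75 ± 0.08). Stressed mice were below all controls in both. Rbm6 was at 1.17, 1.10 and 1.07 and 0.493, 0.625 and 0.514 in CD8a cells from wild-type mice (-0.92 ± 0.10), and Rbm26 and Rbm33 fell, with log2 changes of -0.85 ± 0.13 and -0.76 ± 0.10 in CD4 cells. Rbm5, a regulator of splice site choice, fell, with log2 changes of -0.75 ± 0.09 and -0.65 ± 0.08 in CD8a cells of the 2 genotypes. Rbm39, an SR-like coactivator, fell least (-0.21 ± 0.07, adjusted p = 0.033, CD8a cells of mice labelled knockout), and its call was lost under all 3 scalings and without any 1 of 4 mice. Rbm8a, the exon junction protein Y14, did not pass in any comparison (0.09 to 0.21). Rbm3, a cold-inducible RNA-binding protein, varied more between stressed wild-type mice than between groups: they were at 4.69, 3.44 and 2.32 in CD4 and 4.10, 3.14 and 2.13 in CD8a cells, mouse 1 highest and mouse 3 lowest in both, against 2.93, 2.14 and 3.44 and 3.18, 2.07 and 3.06 in controls.

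A stress table lists 50 to 56 of the 72 members in CD4 and 51 to 54 of the 64 in CD8a cells. A fit of all 4 groups over all genes that any table of a cell type lists covers the rest. In CD4 cells it called 11 of 17 Sm and LSm genes higher and 31 of 55 others lower in wild-type mice, with 22.9% of 2999 genes called higher and 27.7% lower. In mice labelled knockout it called 4 higher and 31 lower, with 12.7% and 29.0% over all genes. In CD8a cells it called 7 of 17 Sm and LSm genes higher and 30 of 47 others lower in wild-type mice (18.8% and 35.5% over all) and 4 and 31 in mice labelled knockout (13.2% and 34.4%). These counts do not turn on which table lists a gene, though each gene is in at least 1 of the authors' tables. Among members absent from the CD4 wild-type table, Rbm6 (-0.77), Hnrnpul1 (-0.65), Hnrnpd (-0.51), Sf3b1 (-0.40) and Son (-0.35), a speckle protein, were called lower, and Rbm39 (-0.10) and Hnrnpk (-0.15) were not. The wild-type mice and those labelled knockout are separate animals. In CD4 cells the 31 members called lower were the same in both, and over all genes 787 were shared of 832 in wild-type mice (94.6%) and 871 in mice labelled knockout (90.4%). In CD8a cells 30 members were shared, all 30 of wild-type mice and 96.8% of the 31 in mice labelled knockout, against 93.2% and 96.0% over all genes. Of members called higher, 4 were shared in each cell type, of 14 in wild-type mice and 5 in mice labelled knockout in CD4 cells (28.6% and 80.0%, against 44.5% and 80.1% over all genes), and of 9 and 5 in CD8a cells (44.4% and 80.0%, against 53.3% and 76.1%).

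The genotype label by itself changed no member past the threshold. Without stress 13 members were listed for CD4 cells and limma called 0, against 21.8% of 496 genes, and 3 had an unadjusted p under 0.05. All 13 log2 changes (labelled knockout minus wild type) were above 0, with a median of 0.17, and the median of all listed genes was 0.20. Hnrnpul2 was at 1.35, 1.46 and 1.41 in wild-type controls and 1.62, 1.74 and 1.74 in controls labelled knockout (0.26 ± 0.09, limma adjusted p = 0.068), and Srsf5 at 3.62, 3.41 and 3.46 and 3.77, 3.85 and 4.20 (0.17 ± 0.07). The groups did not overlap in either gene, and neither passed. Deviations of same-numbered mice correlated weakly in this comparison (0.257, 0.234 and 0.325). With the mouse number as a replicate block 1 member was called. Centring the mice on their medians turned the log2 changes of Hnrnpul2 and Srsf5 to just below 0.

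In CD8a cells without stress 0 of 8 listed members were called, against 8.25% of 303 genes, with 2 at an unadjusted p under 0.05: Sf3b6 (0.31 ± 0.10) and Srsf5 (0.18 ± 0.06; adjusted p = 0.07 for both), and Luc7l2 next (0.15 ± 0.07). Under stress the authors' tables listed 1 member, Hnrnpd, which binds AU-rich elements and regulates splicing. It was at 1.495, 1.59 and 1.17 in CD4 cells of stressed wild-type mice and 1.80, 1.86 and 1.88 in stressed mice labelled knockout. The groups did not overlap, and the call was missed (0.37 ± 0.15, limma adjusted p = 0.062, unadjusted 0.04), with 33.3% of 87 genes called. In CD8a cells it was at 1.34, 1.40 and 0.928 and 1.38, 1.79 and 1.70, with overlap (0.40 ± 0.19, adjusted p = 0.089), and 61.6% of 99 genes were called.

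Whether the stress effect itself differed by genotype was tested as an interaction in all 12 mice. It called 0 of 72 members in CD4 and 0 of 64 in CD8a cells, and 0% of all 2999 and 2851 genes, of which 284 and 204 had an unadjusted p under 0.05. At an unadjusted p under 0.05 there were 3 members in CD4 cells: Prpf4b (0.30 ± 0.10), Snrpert (0.38 ± 0.16) and Clk1 (0.29 ± 0.13), and 0 in CD8a cells, where Lsm11 (0.36 ± 0.18), Sf3b6 (-0.25 ± 0.12) and Luc7l3 (0.24 ± 0.12) had the smallest p. Prpf4b was at 1.89, 1.73 and 1.92 in stressed wild-type mice and 2.29, 2.19 and 2.05 in stressed mice labelled knockout, against 3.12, 3.06 and 3.06 and 2.94, 2.97 and 2.85 in their controls. The LSm genes had a median interaction of -0.16 in CD4 and -0.09 in CD8a cells, where all genes had -0.05 and 0.02. The higher number of LSm calls in wild-type mice is therefore not shown to be a difference between genotypes. Interaction estimates of single members ran from -0.32 to 0.38 in CD4 and -0.25 to 0.36 in CD8a cells.

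The cell types were compared within each mouse. Over the 61 members listed in both, 26 were lower in CD8a than in CD4 cells and 3 higher, against 35.5% and 17.3% of 2166 genes. By class, 7 of 10 hnRNP genes were lower and 0 higher, and 6 of 10 RBM genes lower and 1 higher. Hnrnpa3 was at 4.84, 4.78 and 4.84 in CD4 and 3.99, 3.90 and 4.01 in CD8a cells of wild-type controls. Each CD8a value was below each CD4 value there, and the log2 difference over all 12 mice was -0.24 ± 0.03 (limma adjusted p = 1.2e-05). Son was at 5.31, 5.76 and 6.03 and 4.55, 4.74 and 5.25, also without overlap (-0.24 ± 0.03). Lsm12 (-0.24 ± 0.04), Snrpc (-0.26 ± 0.04), a U1 subunit, Hnrnpf (-0.19 ± 0.03), Hnrnpa2b1 (-0.15 ± 0.03) and Rbm18 (-0.24 ± 0.05) were lower too. Snrpg (0.17 ± 0.03), Snrpd3 (0.11 ± 0.04) and Rbm6 (0.10 ± 0.04) were higher in CD8a cells. The count of lower members rested on the scale: with ribosomal and mitochondrial genes removed and the rest rescaled it was 9. The share over all genes under that rescaling is not given here, so this count cannot be read against it. The stress effect did not differ between the cell types for any member by limma, in either genotype (0 called of 61, and 0% of 2166 genes, of which 160 and 134 had an unadjusted p under 0.05), with 3 at an unadjusted p under 0.05 in wild-type mice, Snrnp25 (-0.40 ± 0.13), Prpf39 (-0.26 ± 0.11) and Snrnp40 (-0.25 ± 0.11), and 1 in mice labelled knockout, Srsf1 (0.30 ± 0.12), followed by Rbm5 (-0.19 ± 0.09) and Snrnp25 (-0.27 ± 0.13).

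Splicing genes outside the symbol rule were taken from a list of 142. In CD4 cells of wild-type mice 49 were listed, of which 9 rose and 21 fell, where 31.0% of all genes were called higher and 28.9% lower. In mice labelled knockout 42 were listed, of which 2 rose and 17 fell (19.5% and 20.0% of all genes). In CD8a cells 7 of 44 rose and 27 fell in wild-type mice (26.7% and 41.5%), and 0 of 41 rose and 18 fell in mice labelled knockout (17.9% and 22.1%). Their median log2 change was 0.02 and 0.03 in CD4 cells and -0.59 and -0.06 in CD8a cells from wild-type mice and mice labelled knockout, against 0.15, 0.13, 0.09 and 0.11 over all genes. Among those that fell were the helicase Ddx17 (-0.83 ± 0.09 in CD4 and -0.89 ± 0.08 in CD8a cells from wild-type mice) and the transcription-coupled kinases Cdk12 (-0.88 ± 0.09 and -0.75 ± 0.09) and Cdk13 (-1.03 ± 0.10 and -0.93 ± 0.09). Those that rose in CD4 cells of wild-type mice included Txnl4a, a small U5 protein (0.44 ± 0.15), Magoh, of the exon junction complex (0.31 ± 0.11), Gemin7, of the SMN complex that loads Sm rings (0.33 ± 0.12), and Naa38, an LSm-like protein (0.26 ± 0.10). In CD4 cells of mice labelled knockout only Naa38 of these 4 was called (0.37 ± 0.12, limma adjusted p = 0.023), with adjusted p = 0.058 for Gemin7, 0.16 for Magoh and 0.17 for Txnl4a. These were named as examples after their values were seen.

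Transcript length went with the direction. The median coding transcript was 1055 bases for Sm and 870 for LSm genes, 1735 for other snRNP subunits, 2271 for hnRNP, 2646 for RBM and 2935 for SR genes, and 1804 over 3100 listed genes with a length. Across the 56 members listed for CD4 cells of wild-type mice, Spearman's rho of log2 change and length was -0.75, and across 2027 genes outside the members -0.64. These points are genes of the same mice and are not independent, so no p is given. Under 1000 bases, 7 of 10 Sm and LSm genes were called higher in CD4 cells of wild-type mice, against 54.6% of 476 genes that are neither members nor ribosomal, and 6 of 8 in their CD8a cells, against 46.8% of 406. In mice labelled knockout the shares under 1000 bases lay the other way: 1 of 10 against 27.1% of 424 in CD4 cells and 2 of 9 against 28.3% of 431 in CD8a cells. Between 1000 and 2500 bases, 4 of 7 Sm and LSm genes were higher in CD4 cells of wild-type mice, against 30.8% of 835. Their CD8a cells had 2 of 7 against 30.8% of 565. In mice labelled knockout this range gave 3 of 6 against 10.8% of 695 in CD4 and 2 of 6 against 8.93% of 750 in CD8a cells. Above 2500 bases, 15 of 17 other members were lower in CD4 cells of wild-type mice, against 69.7% of 636. From 1000 to 2500 bases, 7 of 18 other members were lower, against 5.75% of 835. In CD8a cells of wild-type mice these were 20 of 22 against 86.0% of 670, and 9 of 13 against 11.9% of 565. For mice labelled knockout the middle range gave 5 of 14 against 5.76% of 695 in CD4 and 8 of 15 against 8.27% of 750 in CD8a cells. The bins hold at most 25 members each, and in the middle one the members lower outside the Sm and LSm classes were a larger share than other genes of like length. The part of length in the contrast was not tested.

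**Figure D5:**
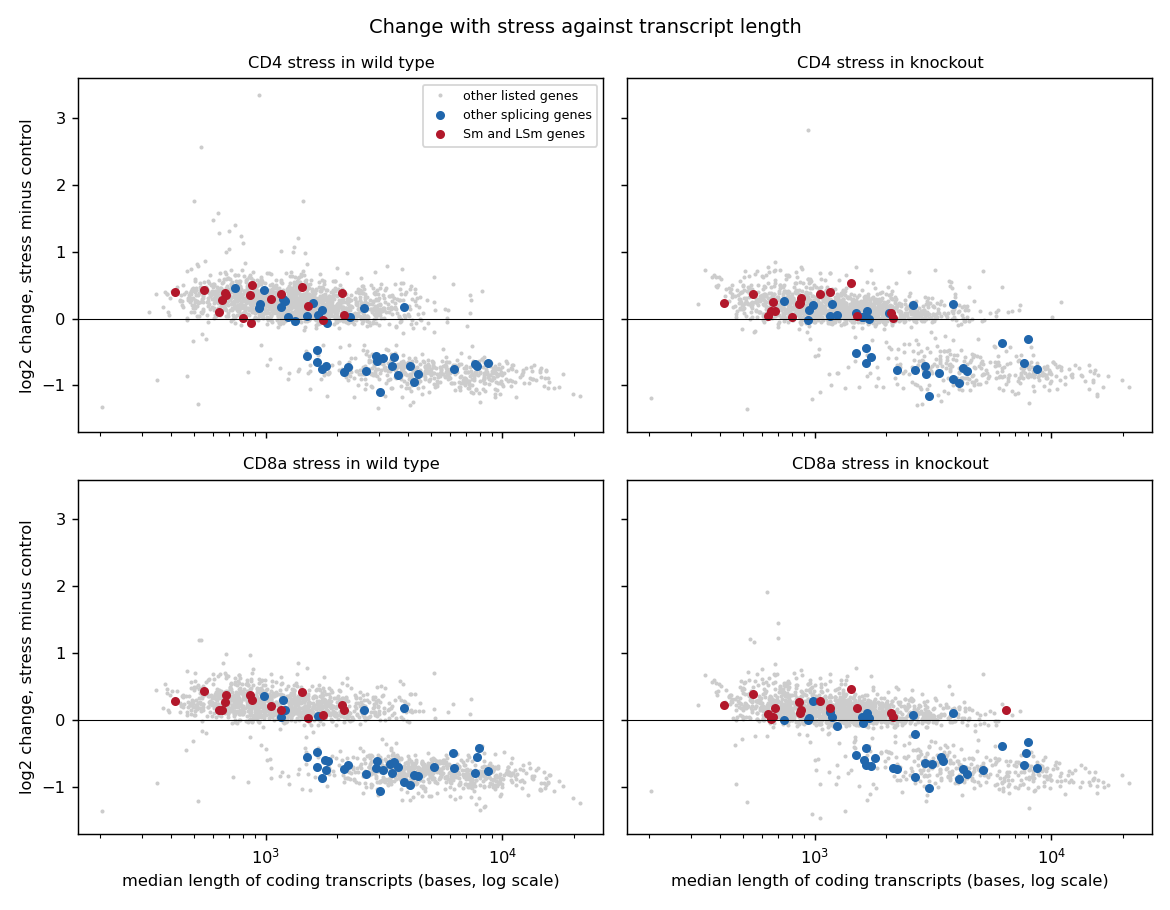
Points are listed genes, with the median length of their coding transcripts in bases (log axis) and their log2 change after stress; red marks Sm and LSm genes, blue the other splicing genes and grey all other genes. The red points lie below 2500 bases, except Lsm11 in CD8a cells of mice labelled knockout, and near or above 0, and the blue points above 2500 bases mostly below -0.4.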

How the data were processed

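Single-cell RNA libraries were prepared from the spleens of 12 mice, and Cell Ranger 2.1.1 and the mm10 build were used, per the submitters' processing notes. The authors deposited 8 tables of average expression signal per gene and mouse, 4 for each cell type, per the file headers. How cells were filtered and called CD4 or CD8a, how doublets were treated, how values were normalised and how genes were selected for a table are not given in the sources used here. Depth and cell numbers are therefore unknown, and no counting interval was possible. No gene had different values in different tables, and 0 columns were left unused.

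A linear model was fitted to log2(value + 0.1) of the signal (limma 3.58.1, run under R 4.3.3, mean-variance trend) on the 6 mice and the genes of the authors' table for each comparison. Fold changes on this scale understate those of low genes. Interactions used all 12 mice and every gene listed for the cell type, and cell types were compared through the difference within each mouse. The fitting was tested on simulated data. The mouse number was tried as a replicate block. Deviations of same-numbered mice correlated above 0 for all numbers only for CD4 genotype without stress, at 0.257, 0.234 and 0.325. In CD8a cells of the same mice the values were 0.232, -0.195 and 0.291, so the number is not shown to pair mice. Alternatives were other pseudocounts, a filter, 3 scalings, no trend, the block, all 4 groups in 1 fit and leaving out each mouse.

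Members, lists and tests were chosen with earlier results of these data known. Genes were named by a rule: all Sm and LSm genes, up to 3 called genes of each other role with the largest changes and groups that do not overlap, other genes called higher after stress, and up to 8 genes by smallest p (3 where none was called) in the remaining comparisons. Some items are not reported here. Further genes were named after their values were seen. Promoters came from RefSeq (GRCm38.p6), and transcript lengths, overlaps and the Snrpe copy from GENCODE M21, aligned with Biopython 1.88. Hnrnpm, Hnrnpul2, Snrpa1 and Snrpert overlap a coding gene on their own strand, so their reads may be shared with it.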

Additional observations from a re-analysis of the deposited data

How the results depend on the processing

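The counts of members outside the Sm and LSm classes called lower after stress stayed within 1.5 times of those reported under each alternative run, with 1 exception: with all 4 groups in 1 fit, which tests more genes, 31 in place of 18 were lower in CD4 cells of mice labelled knockout. Counts of Sm and LSm genes called higher depended more on the processing. With ribosomal and mitochondrial genes removed and the rest rescaled, which moves the median of all genes up by over 0.1 (log2), they were 9 in CD4 cells and 10 in CD8a cells of mice labelled knockout and 14 in CD8a cells of wild-type mice. Centring each mouse on its median gave 15 in the last. Without the mean-variance trend 2 were called in CD8a cells of mice labelled knockout. Leaving out each mouse gave counts of 5 to 8 for wild-type CD8a cells and 2 to 4 for those of mice labelled knockout. The rescaling also left 9 members lower in CD8a than in CD4 cells, a count given without the share over all genes. The replicate block called 4 Sm and LSm genes in CD8a cells of wild-type mice, where same-numbered mice do not deviate together. It called 1 member for CD4 genotype without stress, where their deviations correlated weakly. No other such count moved by over 1.5 times under the block. The causes of these shifts were not tested.

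Of 92 called results of single named genes, 77 kept the call in every alternative and 15 lost it in at least 1, each of these on leaving out a mouse, and none changed sign. Signs changed for some that were not called. After stress in CD4 cells of wild-type mice, rescaling gave 0.053 for Lsm2 and 0.115 for Snrpd3, and centring gave 0.048 for Snrpd3. For genotype without stress, centring gave -0.008 for Hnrnpul2 and -0.099 for Srsf5 in CD4 cells, and -0.052 for Luc7l2 and -0.022 for Srsf5 in CD8a cells. Leaving out each mouse in turn gave, in CD4 cells of wild-type mice, -0.154 to 0.052 for Lsm2, -0.044 to 0.115 for Lsm7 and -0.061 to 0.043 for Snrpd3. In CD4 cells of mice labelled knockout it gave -0.054 to 0.10 for Lsm1, -0.048 to 0.095 for Lsm12 and -0.046 to 0.081 for Lsm7. In their CD8a cells it gave -0.056 to 0.11 for Lsm12, -0.052 to 0.095 for Lsm8 and -0.014 to 0.135 for Snrpd1. Depth is unknown, so a change that was not called is not shown to be absent.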
